A study of Mus musculus with 58 samples.

Results

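The second day of retinoic acid (RA) treatment was examined in control mouse embryonic stem (mES) cells, by setting the 2 DMSO libraries of RA day 2 against the 2 DMSO libraries of RA day 1. These 4 libraries are 4 of the 58 of the series. All 4 come from E14 mES cells of the 129/Ola background in which DPY30, a core subunit shared by the H3K4 methyltransferase complexes, is fused to the mAID degron and the plant receptor OsTIR1 is expressed. The cells were put in 1 µM all-trans RA without LIF and given DMSO, the vehicle, so that DPY30 was left in place. The degron line was raised from homozygous clones, so cells given DMSO are a tagged line and not wild-type E14. Poly(A) RNA was measured by Quant-seq, which sequences the 3′ end of each mRNA, and reads were summed per gene over its 3′ untranslated regions. The same interval in cells given auxin, which triggers degradation of DPY30, was measured in 4 further libraries (auxin RA day 1 and auxin RA day 2, 2 each). The labels number the libraries of a group 1 and 2 and do not say whether they came from separate cultures, so every p below measures the spread between these libraries, which may be technical.

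RA enters the cell, is carried by small binding proteins and binds nuclear receptors (RARs, paired with RXRs) that sit on short repeated DNA elements near their target genes. Its best known direct targets are genes of its own metabolism and the 3′ members of the Hox clusters, which specify position along the body axis. In ES cells, withdrawal of LIF together with RA dismantles the pluripotency network, and depending on the culture the cells take on neural, mesodermal or primitive endoderm (extraembryonic endoderm) expression programmes. In RNA from a whole culture, fewer cells of a type and less RNA per cell cannot be told apart.

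The day 1 libraries held 1843040 and 1815062 reads and the day 2 libraries 1941617 and 2144900, within the range of 1264241 to 2543632 of the 22 Quant-seq libraries. Reads that mapped to more than 1 place (multiply mapped) made up 33.9% and 33.5% of the day 1 reads and 30.1% and 30.6% of the day 2 reads. No pair of the 4 libraries was identical. Levels below are read counts scaled to library size with TMM factors (CPM). They are not divided by gene length, since each mRNA gives reads from its 3′ end. Intervals and floors cover counting error only. A floor of 3 reads over both day 1 libraries corresponds to 0.857 CPM. The ES cell markers were present on day 1, since Pou5f1 (OCT4) stood at 1962 and 1652 CPM, Sox2 at 459 and 470 CPM and Nanog at 467 and 564 CPM. Dpy30, the tagged gene, stood at 61.3 and 59.2 CPM on day 1 and 44.1 and 48.1 CPM on day 2. Its groups did not overlap, and the difference did not pass the test (log2 fold change −0.38 ± 0.17 (SE), adjusted p = 0.11).

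To find which genes changed from day 1 to day 2, edgeR's quasi-likelihood F test was run in 1 fit of all RA groups on the 11415 genes whose mean reached 10 reads in any group. A gene passed the test at an adjusted p below 0.05, and was called higher or lower when its log2 fold change was also above 1 or below −1. On day 2, 577 genes were called higher (5.05% of the genes tested), and 239 were called lower (2.09%). Without the fold limit 1374 genes rose (12%) and 919 fell (8.05%). The rises were larger than the falls: 216 called genes rose by more than 2 on the log2 scale and 40 fell by more than 2, with a median log2 fold change of 1.69 for the genes called higher and −1.38 for those called lower. The median over all genes tested was 0.05. The same fit called 399 higher and 334 lower in the interval from 0 h to 8 h, 1061 higher and 848 lower from 8 h to day 1, and 889 higher and 537 lower from day 2 to day 4. These neighbouring intervals share the day 1 or day 2 libraries with the one described here, except that from 0 h to 8 h.

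**Figure D1:**
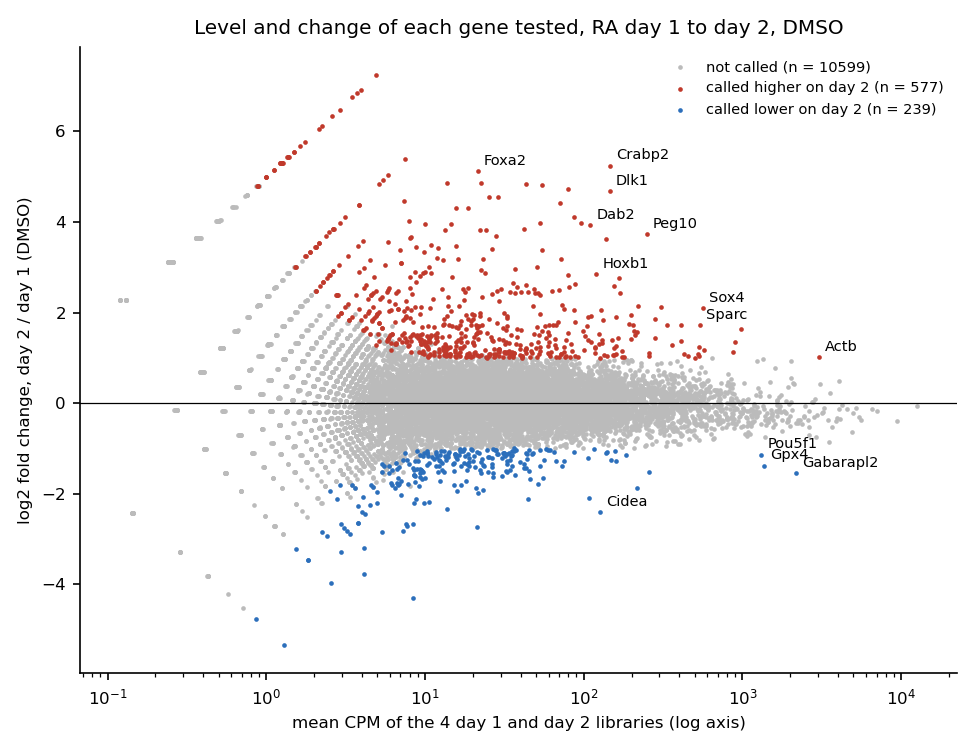
Each point is a gene tested; the x axis is its mean CPM over the 4 day 1 and day 2 libraries on a log axis and the y axis its log2 fold change on day 2 relative to day 1 in DMSO. The 577 genes called higher reach larger changes than the 239 called lower, and they span low genes such as Foxa2 and the highly expressed Actb.

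The genes called higher took up 1.56% and 1.54% of all reads in the day 1 libraries and 4.54% and 4.53% in the day 2 libraries. The genes called lower took up 1.53% and 1.50% on day 1 and 0.601% and 0.598% on day 2. Earlier, those called higher had held 2.74% and 2.73% at 0 h and 2.08% and 2.07% at 8 h, so their summed share was lowest on day 1. Low day 1 values favour the call, so this low is only a description. In libraries outside the 2 groups compared, which shared the filter and the spread of the fit, the genes called higher held 7.38% and 7.42% of reads on day 4, and 10.4% in the single day 6 library, and those called lower held 0.424% and 0.412% on day 4.

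The retinoid genes held both rises and falls. Crabp2 (ENSMUSG00000004885, chr3:87948666-87953376, forward strand, GRCm38), a cellular binding protein that passes RA to the receptors, stood at 10.2 and 4.60 CPM on day 1 and 287 and 280 CPM on day 2. All day 2 values lay above all day 1 values, and at a log2 fold change of 5.24 ± 0.26 (SE; adjusted p = 4.5e-14) it was the largest rise among genes with at least 20 CPM. Its mean had been 1.48 CPM at 0 h and 0.772 CPM at 8 h. Crabp1, the related binding protein, fell from 97.1 and 93.1 CPM to 39.0 and 39.4 CPM (log2 fold change −1.28 ± 0.18 (SE), adjusted p = 6.1e-06). Stra6, the retinol uptake receptor, rose from 5.11 and 6.90 to 30.1 and 23.6 CPM (log2 fold change 2.15 ± 0.32 (SE), adjusted p = 2.0e-05). Lrat, which stores retinol as an ester, fell from 9.65 and 5.17 CPM to 3.12 and 0 CPM at an adjusted p of 0.045 (DESeq2 gave it no adjusted p). In all, 3 of the 6 binding and uptake genes passed upwards and 2 downwards (1 to 2 with 1 library left out), where 12% and 8.05% of all genes tested did. Calls lost with 1 library left out were those of Lrat (without day 2 library 2, adjusted p = 0.34). Other settings ended the call of Lrat (adjusted p = 0.052 with no TMM factors).

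Among the enzymes, Cyp26b1 (ENSMUSG00000063415, chr6:84571414-84593908, reverse strand), which oxidises and so removes RA, stood at 5.11 and 7.47 CPM on day 1 and 131 and 141 CPM on day 2 (log2 fold change 4.42 ± 0.30 (SE), adjusted p = 3.7e-11). Its paralogue Cyp26a1, known as an immediate RA target, stood at 56.2 and 53.5 CPM on day 1 and 90.9 and 106 CPM on day 2 and rose less (log2 fold change 0.84 ± 0.24 (SE), adjusted p = 0.013). Cyp26a1 had already reached 24.3 CPM at 8 h, whereas Cyp26b1 was at 5.03 CPM then. Dhrs3, which turns retinaldehyde back to retinol, rose from 29.0 and 27.6 to 89.8 and 96.2 CPM (log2 fold change 1.72 ± 0.18 (SE), adjusted p = 6.7e-08). Aldh1a3, an RA-synthesising enzyme, fell (log2 fold change −0.76 ± 0.22 (SE), adjusted p = 0.016), but 99.7% of its reads were multiply mapped. The enzymes that rose all clear RA or its precursor, and 3 of the 8 synthesis and breakdown genes tested passed upwards (2 to 3 with 1 library left out) and 1 downwards (0 to 1 with 1 library left out), beside 12% and 8.05% of all genes tested. None of the 6 receptor genes tested passed, and 79.9% of all genes tested did not either. Rarb, the classic RA-induced receptor, stood at 18.2 and 13.8 CPM on day 1 and 31.2 and 23.1 CPM on day 2 (log2 fold change 0.75 ± 0.28 (SE), adjusted p = 0.057). Rara was at 34.1 and 32.2 CPM on day 1 and 25.4 and 26.0 CPM on day 2, and Rarg at 102 and 89.1 and then 115 and 112 CPM. In refits without 1 library, the test was no longer passed by Cyp26a1 (without day 1 library 1, day 1 library 2 or day 2 library 2, adjusted p up to 0.12) and Aldh1a3 (without day 1 library 2 or day 2 library 2, adjusted p up to 0.14).

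Repeats with the letters of the classic RA response element lie in the promoter windows of Cyp26a1 and Rarb. They are shown because both genes are known RA targets, and were chosen for that among the 4 windows with such a repeat. The mean of Cyp26a1 went from 0 CPM at 0 h to 54.8 CPM on day 1 and that of Rarb from 0.242 to 16.0 CPM. The windows run from 250 bases before to 50 after the RefSeq start (GRCm38.p6). The search was for 2 half-sites (AGGTCA or AGTTCA or GGGTCA or GGTTCA) in the same direction, 5 bases apart, on either strand. The half-sites are in capitals.
Cyp26a1: aattAGTTCAcccaaAGTTCAtctt
Rarb: gaagGGTTCAccgaaAGTTCActcg
The Cyp26a1 stretch is on the reverse strand at chr19:37697772-37697796, with its centre 24 bases before the start, and the Rarb stretch on the reverse strand at chr14:16575509-16575533, 44 bases before the start. Such a repeat was found in 4 of 9045 promoter windows of genes tested (0.0442%), and in 0 of the 428 windows of genes called higher and 0 of the 198 of genes called lower. With 1 base or 2 bases in place of 5, a repeat was found in 23 (0.254%) and 6 (0.0663%) of the 9045 windows, each time in 1 of the 428 of genes called higher. No match says only that these letters are not in these windows.

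**Figure D2:**
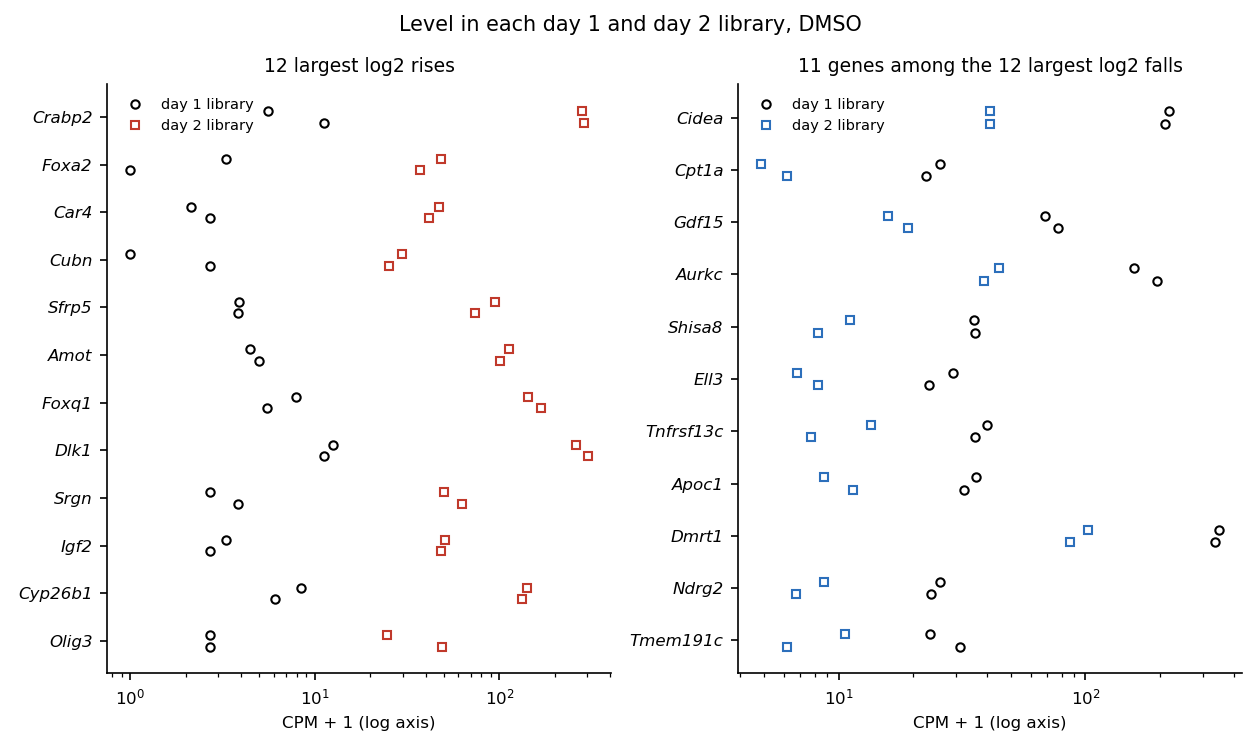
Level of the 12 genes with the largest log2 rises (left) and of 11 of the 12 with the largest falls (right) that had at least 20 CPM in the higher group; each marker is 1 library, on a log axis of CPM + 1. Circles are day 1 and squares day 2 libraries, and the 2 days do not overlap for any of the 23 genes shown.

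Hox genes of the Hoxa, Hoxb and Hoxc clusters rose. Of the 39 genes, 26 were tested (from Hoxd, Hoxd13 alone), 14 rose (9 to 12 with 1 library left out), none fell and 12 did not pass (12% of all genes tested rose), with a median log2 fold change of 0.88 beside 0.05 for all genes. The largest rises were in the Hoxc cluster. Hoxc9 stood at 6.25 and 6.32 CPM on day 1 and 78.4 and 122 CPM on day 2 (log2 fold change 3.99 ± 0.30 (SE), adjusted p = 1.9e-10). Hoxc8 stood at 1.14 and 1.72 CPM on day 1 and 30.1 and 29.3 CPM on day 2 (log2 fold change 4.32 ± 0.44 (SE), adjusted p = 1.4e-07). Hoxc5 rose from 1.14 and 2.30 to 28.6 and 21.6 CPM (log2 fold change 3.82 ± 0.50 (SE), adjusted p = 3.3e-06). All 3 were under 7 CPM in each day 1 library, and Hoxc8 and Hoxc6 had no read in any 0 h or 8 h library. The 3′ genes of the Hoxa and Hoxb clusters had more reads on day 1. Hoxb1 stood at 27.8 and 30.5 CPM on day 1 and 213 and 209 CPM on day 2 (log2 fold change 2.86 ± 0.15 (SE), adjusted p = 5.2e-14). Hoxb2 rose by 1.69 ± 0.30 and Hoxb5 by 1.19 ± 0.23. Hoxa5, the tested Hox gene with the highest CPM on day 2, rose from 262 and 271 to 482 and 528 CPM (log2 fold change 0.92 ± 0.12 (SE), adjusted p = 2.5e-06). In the Meis, Pbx and Cdx list, of 11 tested, 4 rose (3 to 4 with 1 library left out), 1 fell and 6 did not pass, beside the 12% of all genes tested that rose. Among the TALE partners of the Hox proteins, Meis1 (2.93 ± 0.29), Meis2 (1.90 ± 0.14) and Meis3 (1.50 ± 0.49) rose. Cdx1, a regulator of posterior Hox genes that RA induces early, fell from 91.4 and 78.2 to 47.8 and 51.5 CPM (log2 fold change −0.77 ± 0.18 (SE), adjusted p = 0.0028). Leaving out 1 library ended the calls of Meis3 (without day 1 library 1, day 2 library 1 or day 2 library 2, adjusted p up to 0.33). Outside these refits the call ended for Meis3 (adjusted p = 0.14 with DESeq2).

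**Figure D3:**
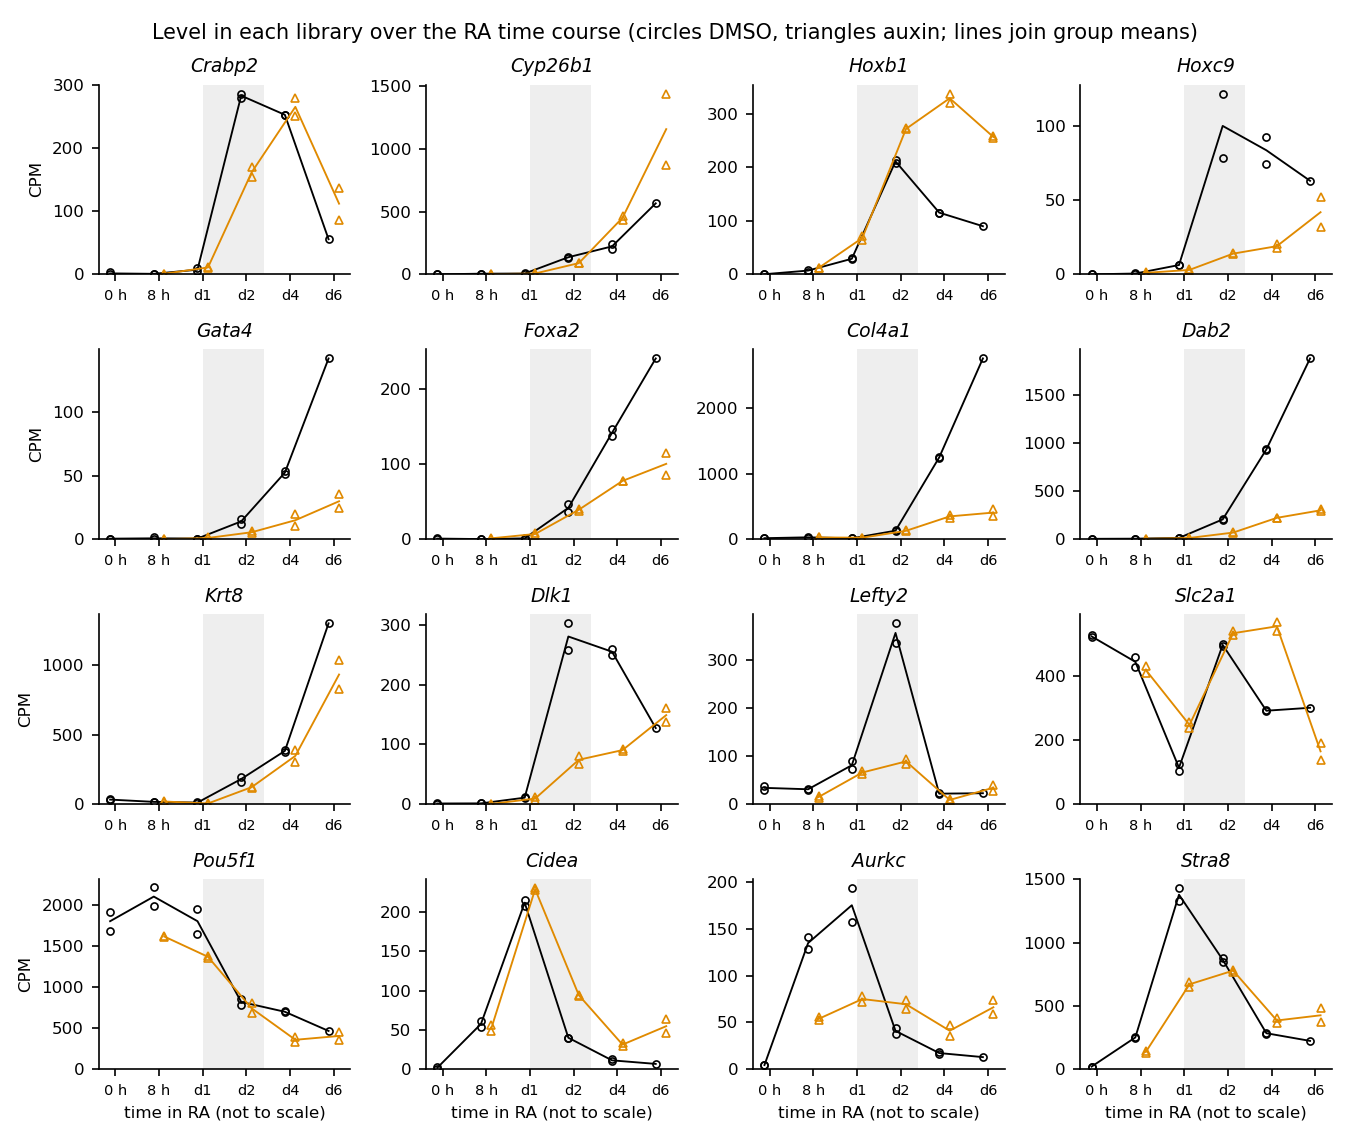
CPM in each library (circles DMSO, triangles auxin) over the RA time course for 16 genes, with lines through the group means and the day 1 to day 2 interval shaded; DMSO day 6 is 1 library. The order of the times is shown and not their spacing. Crabp2, Hoxc9, Gata4, Foxa2, Dab2 and Dlk1 stay near 0 CPM to day 1, Slc2a1 has its lowest DMSO level on day 1, and Cidea, Aurkc and Stra8 have their highest DMSO means on day 1.

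The list with the highest share of risers was that of extraembryonic endoderm, the lineage that forms the yolk sac and is marked by GATA6, GATA4, SOX17 and a basement membrane rich in laminin and type IV collagen. Of its 24 members tested, 20 rose and none fell, all 20 beyond the fold limit, where 12% of all genes tested rose and 5.05% did so beyond that limit. The median log2 fold change of the list was 2.98 (2.68 when genes without a read in a group are put at the floor), beside 0.05 for all genes. Summed over the list, the level was 1292 and 1308 CPM at 0 h, 480 and 468 on day 1, 1886 and 1997 on day 2 and 8973 and 9062 on day 4, so day 1 was its lowest time. The transcription factors rose from low levels. Gata6 stood at 18.2 and 15.5 CPM on day 1 and 99.7 and 77.9 CPM on day 2 (log2 fold change 2.39 ± 0.24 (SE), adjusted p = 3.9e-08). Sox17 stood at 2.27 and 2.30 CPM on day 1 and 19.2 and 24.0 CPM on day 2 (log2 fold change 3.21 ± 0.40 (SE), adjusted p = 1.3e-06). Foxa2 stood at 0 and 2.30 CPM on day 1 and 36.4 and 47.1 CPM on day 2 (log2 fold change 5.12 ± 0.44 (SE), adjusted p = 1.3e-09). Every day 2 library lay above every day 1 library for each of the 3. Gata4 had 1 read in each day 1 library and 31 and 25 on day 2, a ratio of 24.5-fold (95% interval 6.47 to 207) from the pooled reads. Sox7 (3.64 ± 0.56) and Hnf4a (2.49 ± 0.83) also rose. The test was not passed in every refit without 1 library by Hnf4a (without any of the 4, adjusted p up to 0.16). Under another setting the test was not passed by Hnf4a (adjusted p = 0.066 with no filter).

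Genes for matrix and membrane proteins of this lineage rose in the same interval. Col4a1 stood at 14.2 and 14.4 CPM on day 1 and 138 and 123 CPM on day 2 (log2 fold change 3.18 ± 0.19 (SE), adjusted p = 8.8e-13). Lama1 stood at 5.68 and 2.30 CPM on day 1 and 48.8 and 55.8 CPM on day 2 (log2 fold change 3.69 ± 0.33 (SE), adjusted p = 4.2e-09). Lamb1 stood at 27.8 and 24.7 CPM on day 1 and 116 and 122 CPM on day 2 (log2 fold change 2.17 ± 0.18 (SE), adjusted p = 6.9e-10). Each of the 3 chains lay above every day 1 value in both day 2 libraries. Dab2, an endocytic adaptor of visceral endoderm, rose from 12.5 and 14.4 to 203 and 211 CPM (log2 fold change 3.94 ± 0.17 (SE), adjusted p = 1.8e-15). Sparc, a matrix protein abundant in parietal endoderm, had the highest CPM of those named, at 256 and 244 CPM on day 1 and 776 and 879 CPM on day 2 (log2 fold change 1.73 ± 0.11 (SE), adjusted p = 9.3e-12). Cubn, the cubilin receptor of absorptive endoderm, went from 3 and 0 reads to 47 and 60, a ratio of 31.2-fold (95% interval 10.4 to 154), with 53.6% of its reads multiply mapped. Ttr, a transport protein that visceral endoderm secretes, had no read on day 1 and 8 and 20 on day 2, at least 8.16-fold above the floor. On day 4 the group means of Col4a1, Dab2 and Ttr were 1247, 935 and 56.8 CPM.

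Beside 12% of all genes tested, 6 of 18 genes of the trophectoderm and simple epithelium list rose (3 to 5 with 1 library left out), and none fell. Krt8, a keratin of simple epithelia, stood at 10.8 and 12.1 CPM on day 1 and 163 and 199 CPM on day 2 (log2 fold change 3.98 ± 0.21 (SE), adjusted p = 1.1e-13), although 90.2% of its reads were multiply mapped. Its partner Krt18, with 6.16% such reads, rose from 5.11 and 4.02 to 46.2 and 51.0 CPM (log2 fold change 3.39 ± 0.31 (SE), adjusted p = 4.2e-09). Gata3 rose as well (2.46 ± 0.29). Of the 16 primitive streak and mesendoderm genes 5 had enough reads to test, and T, Mixl1, Mesp1 and Gsc were among those that did not. The 4 that rose were Foxa2, Hoxb1, Eomes (log2 fold change 1.08 ± 0.38 (SE), adjusted p = 0.043) and Lhx1, which had no read on day 1 and 13 and 17 on day 2, at least 8.74-fold above the floor. Foxa2 and Hoxb1 also stand in other lists. In the mesoderm, vessel and blood list Flt1, Meox1 and Bmper rose (1 to 2 with 1 library left out) of 10 tested, each with a day 1 mean under 2 CPM. Pecam1, an adhesion molecule of endothelium that ES cells also carry, fell from 213 and 206 to 90.9 and 84.2 CPM (log2 fold change −1.26 ± 0.14 (SE), adjusted p = 1.2e-07). Calls lost with 1 library left out were those of Eomes (without any of the 4, adjusted p up to 0.32), Flt1 (without day 1 library 1, day 1 library 2 or day 2 library 2, adjusted p up to 0.11), Meox1 (without day 1 library 1 or day 2 library 2, adjusted p up to 0.074) and Bmper (without day 1 library 2 or day 2 library 1, adjusted p up to 0.099). A change of setting ended the call of Eomes (adjusted p = 0.18 with DESeq2, 0.058 with no multiply mapped reads) and Meox1 (adjusted p = 0.074 with DESeq2).

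Neural genes rose in part. Of the 27 neural progenitor genes 11 were tested and 6 rose (3 to 4 with 1 library left out), with none lower, where 12% of all genes tested rose and 8.05% fell. Sox4 (ENSMUSG00000076431, chr13:28948919-28953713, reverse strand) stood at 220 and 204 CPM on day 1 and 902 and 918 CPM on day 2 (log2 fold change 2.10 ± 0.09 (SE), adjusted p = 1.6e-15), the lowest adjusted p in this list. Sox11 rose from 39.2 and 23.6 to 76.9 and 92.8 CPM (log2 fold change 1.43 ± 0.18 (SE), adjusted p = 1.0e-06). Both are SoxC factors that are also expressed outside the nervous system. Cdh2 (N-cadherin) rose (2.43 ± 0.29, with 87.2% of reads multiply mapped), as did Irx3 (1.12 ± 0.31) and Nes (1.90 ± 0.67). Pax6, Olig2 and Neurog2, defining genes of neural progenitors, were too low to test. Among neuronal genes 4 of 17 rose (2 to 3 with 1 library left out) and 1 fell, and the lowest of these counts is near the share of all genes. Gap43, a growth cone protein, stood at 20.4 and 18.4 CPM on day 1 and 146 and 131 CPM on day 2 (log2 fold change 2.83 ± 0.20 (SE), adjusted p = 3.9e-11), and Stmn2 rose (1.04 ± 0.17). Elavl3, an RNA-binding protein of neurons, fell from 40.9 and 26.4 to 8.83 and 13.9 CPM (log2 fold change −1.55 ± 0.27 (SE), adjusted p = 1.2e-04). In the neural crest list Msx1 rose from 7.95 and 10.9 to 118 and 81.3 CPM (log2 fold change 3.39 ± 0.25 (SE), adjusted p = 1.7e-10) and Sox9 by 1.07 ± 0.26, and the other 8 tested members did not pass. In refits without 1 library, the test was no longer passed by Irx3 (without day 1 library 1, day 1 library 2 or day 2 library 2, adjusted p up to 0.1), Nes (without any of the 4, adjusted p up to 0.23) and Sox9 (without day 1 library 1, adjusted p = 0.073). Other settings ended the call of Irx3 (adjusted p = 0.054 with DESeq2) and Nes (adjusted p = 0.15 with DESeq2, 0.056 with no multiply mapped reads).

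**Figure D4:**
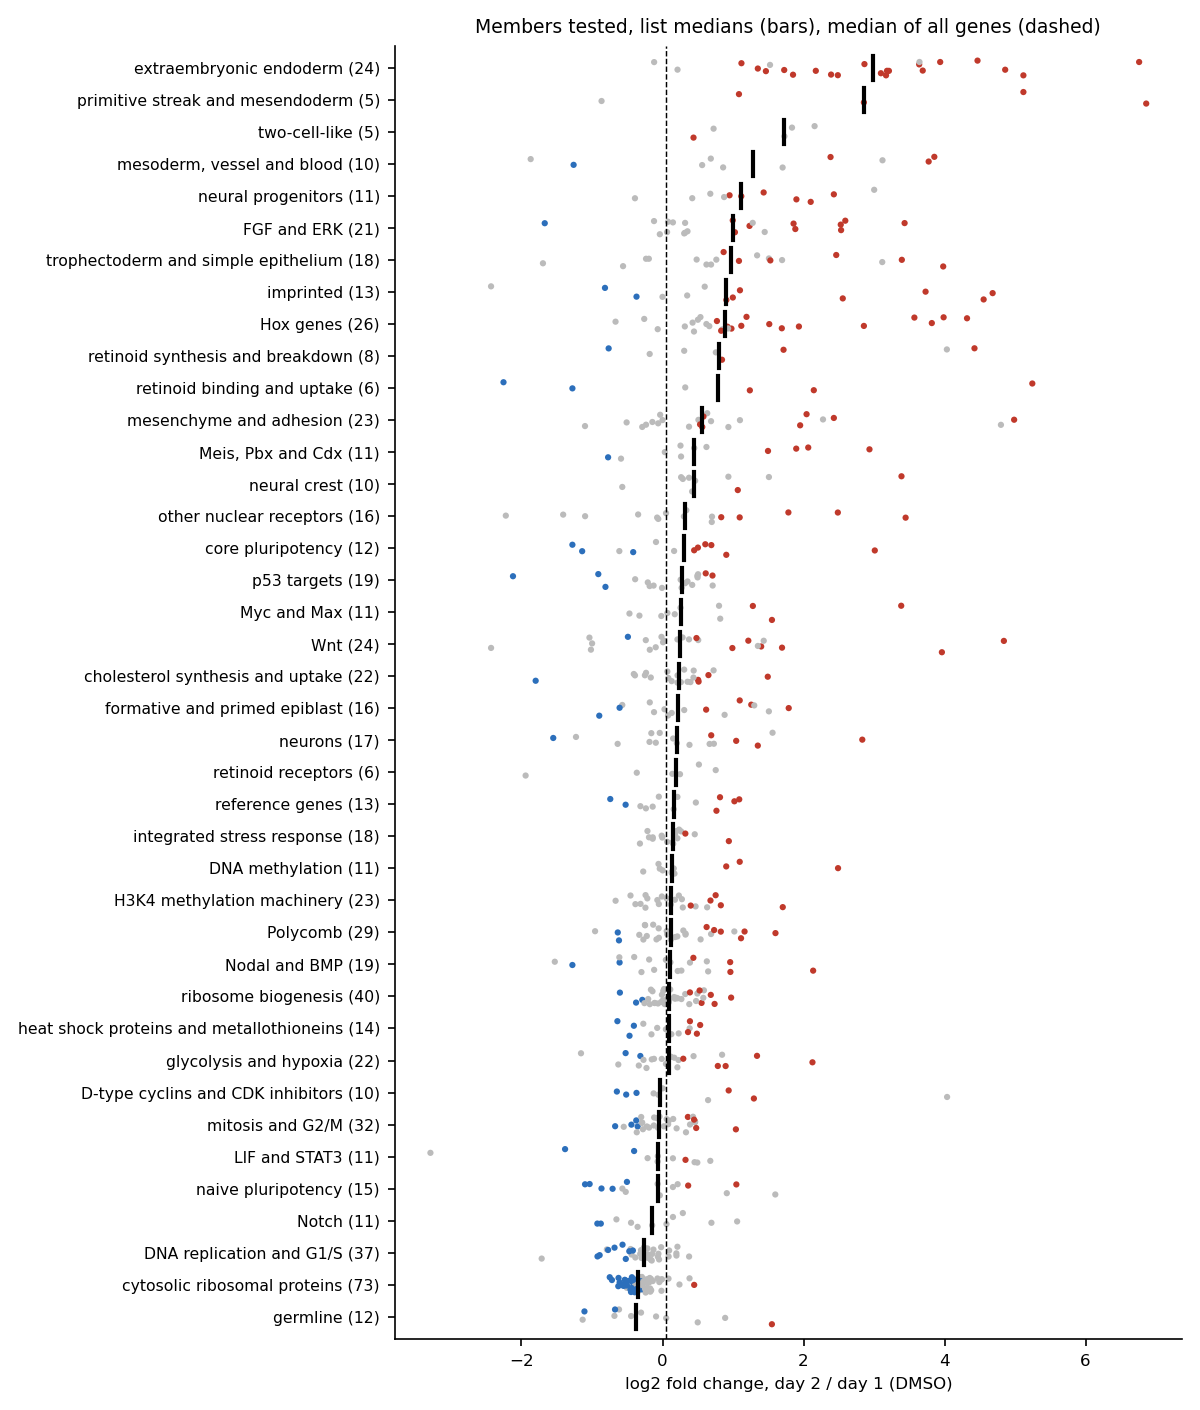
Log2 fold change on day 2 relative to day 1 in DMSO of every tested member of each gene list (number tested in parentheses); red members rose, blue members fell and grey members did not pass the test, bars are list medians and the dashed line the median of all genes tested. Extraembryonic endoderm stands at 2.98 with 20 of 24 members in red, and cytosolic ribosomal proteins at −0.34 with 35 of 73 in blue.

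The pluripotency genes did not move as a block. In the core list 3 of 12 fell and 6 rose (all genes tested: 8.05% and 12%). Pou5f1 (ENSMUSG00000024406, chr17:35506018-35510772, forward strand) stood at 1962 and 1652 CPM on day 1 and 786 and 855 CPM on day 2 (log2 fold change −1.14 ± 0.11 (SE), adjusted p = 1.9e-08), but 99.9% of its reads were multiply mapped, so the gene and its copies cannot be separated. Sox2 fell from 459 and 470 to 337 and 360 CPM (log2 fold change −0.42 ± 0.10 (SE), adjusted p = 0.0029). Tdgf1 (Cripto, a co-receptor of the TGF-β family) fell from 91.4 and 122 to 42.6 and 45.2 CPM (log2 fold change −1.28 ± 0.16 (SE), adjusted p = 1.1e-06). Lin28a, an RNA-binding protein that blocks let-7 maturation, went the other way, at 11.9 and 10.3 CPM on day 1 and 81.5 and 98.6 CPM on day 2 (log2 fold change 3.01 ± 0.24 (SE), adjusted p = 2.5e-10). Its 0 h mean was 135 CPM, so day 1 was its low point. Sall4 (0.61 ± 0.12), L1td1 (0.69 ± 0.11), Utf1 (0.90 ± 0.16), Trim71 (0.50 ± 0.13) and Dppa2 (0.45 ± 0.12) rose too, each below the fold limit. With 1 library left out the test was no longer passed by Trim71 (without day 1 library 2 or day 2 library 1, adjusted p up to 0.29) and Dppa2 (without day 1 library 2 or day 2 library 2, adjusted p up to 0.22). Outside these refits Dppa2 did not pass under 2 settings (adjusted p = 0.053 with DESeq2, 0.19 with no multiply mapped reads).

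In the naive list 5 of 15 fell and 2 rose (1 to 2 with 1 library left out), beside 8.05% and 12% of all genes tested. Nanog fell from 467 and 564 to 332 and 299 CPM (log2 fold change −0.71 ± 0.14 (SE), adjusted p = 7.4e-04). Esrrb (−0.50 ± 0.12) fell, and Nr5a2 (−1.10 ± 0.18) and Tcl1 (−1.03 ± 0.14) fell beyond the fold limit. Klf5 rose from 317 and 273 to 547 and 672 CPM (log2 fold change 1.05 ± 0.12 (SE), adjusted p = 1.8e-07), with a 0 h mean of 1069 CPM. Zfp42 (REX1) did not pass, at 154 and 131 and then 137 and 140 CPM, and neither did Klf2 and Klf4. Among formative and primed epiblast genes Otx2 (−0.90 ± 0.26) and Nodal (−0.61 ± 0.14) fell, and Dnmt3b (1.10 ± 0.15), Sox3 (1.26 ± 0.30) and Pim2 (1.79 ± 0.40) rose. Fgf5, the usual marker of that state, was too low to test. Of 12 meiotic and germline genes tested, Tdrd1 (1.55 ± 0.47) rose, 2 fell and 9 did not pass. Taf7l fell by 1.11 ± 0.40. Stra8, named for its induction by RA, fell from 1430 and 1327 to 847 and 882 CPM (log2 fold change −0.67 ± 0.10 (SE), adjusted p = 1.5e-05) after its rise from 19.7 CPM at 0 h. The test was not passed in every refit without 1 library by Otx2 (without day 1 library 1, day 2 library 1 or day 2 library 2, adjusted p up to 0.079), Nodal (without day 2 library 2, adjusted p = 0.064), Tdrd1 (without day 1 library 1, day 1 library 2 or day 2 library 1, adjusted p up to 0.14) and Taf7l (without any of the 4, adjusted p up to 0.21). Under another setting the test was not passed by Otx2 (adjusted p = 0.081 with DESeq2), Sox3 (adjusted p = 0.052 with DESeq2), Tdrd1 (adjusted p = 0.15 with DESeq2) and Taf7l (adjusted p = 0.24 with DESeq2, 0.051 with no TMM factors, 0.073 with no filter, 0.053 with the compared groups alone, 0.057 with the replicate block).

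The FGF and ERK list held 9 risers and 1 faller among 21 tested. For this and the next lists the shares of all genes tested were 12% higher and 8.05% lower. The faller was the ligand Fgf4, at 74.4 and 65.5 CPM on day 1 and 19.2 and 24.5 CPM on day 2 (log2 fold change −1.67 ± 0.18 (SE), adjusted p = 1.6e-07). The receptors Fgfr2 (2.53 ± 0.37) and Fgfr1 (1.00 ± 0.19) rose. So did feedback inhibitors that ERK activity induces. Spry4 stood at 1.14 and 2.87 CPM on day 1 and 22.9 and 21.6 CPM on day 2 (log2 fold change 3.43 ± 0.48 (SE), adjusted p = 7.6e-06). Spry2 stood at 16.5 and 11.5 and then 44.7 and 58.7 CPM (log2 fold change 1.88 ± 0.27 (SE), adjusted p = 1.3e-05). Dusp6, an ERK phosphatase, stood at 315 and 324 CPM on day 1 and 804 and 698 CPM on day 2 (log2 fold change 1.23 ± 0.18 (SE), adjusted p = 1.5e-05). Dusp4 (2.53 ± 0.39), Il17rd (1.86 ± 0.24), Spred1 (1.03 ± 0.18) and Phlda1 (2.59 ± 0.13) rose as well. In the Wnt list 7 of 24 rose (4 to 6 with 1 library left out) and 1, the antagonist Sfrp1 (−0.49 ± 0.14), fell. The largest rises were in other secreted antagonists. Sfrp5 stood at 2.84 and 2.87 CPM on day 1 and 72.7 and 94.3 CPM on day 2 (log2 fold change 4.84 ± 0.32 (SE), adjusted p = 1.3e-11). Dkk1 stood at 1.70 and 0.575 CPM on day 1 and 20.3 and 17.3 CPM on day 2 (log2 fold change 3.96 ± 0.53 (SE), adjusted p = 3.9e-06). The receptor Fzd2 came next (1.69 ± 0.27). Lefty2, a Nodal antagonist, stood at 72.7 and 89.1 CPM on day 1 and 335 and 376 CPM on day 2 (log2 fold change 2.14 ± 0.16 (SE), adjusted p = 8.3e-11). Its day 4 mean was 21.8 CPM. In the LIF and STAT3 list, of 11 tested, Pim1 (0.33 ± 0.11) rose, 2 fell (2 in each refit with 1 library left out) and 8 did not pass. The riser share was close to that of all genes, and the faller share rests on 2 genes. Socs3, a feedback target of STAT3, fell from 34.1 and 33.9 to 16.1 and 10.1 CPM (log2 fold change −1.38 ± 0.23 (SE), adjusted p = 9.7e-05), having started at 305 CPM at 0 h. Pim3 fell as well (−0.40 ± 0.09). Of 11 Notch pathway genes none rose and Hes6 and Mfng fell (0 to 1 with 1 library left out). With 1 library left out, the test was no longer passed by Fgfr1 (without day 1 library 1, adjusted p = 0.05) and Sfrp1 (without day 1 library 2 or day 2 library 1, adjusted p up to 0.1). Nor was it passed by Pim1 (without any of the 4, adjusted p up to 0.33), Hes6 (without day 1 library 2 or day 2 library 1, adjusted p up to 0.087) and Mfng (without any of the 4, adjusted p up to 0.26). Under other settings the test was not passed by Pim1 (adjusted p = 0.09 with DESeq2, 0.067 with no filter, 0.074 with no multiply mapped reads) and Mfng (adjusted p = 0.22 with DESeq2, 0.052 with no TMM factors).

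Growth and cell cycle genes changed by less than the fold limit for the most part. Of the 73 cytosolic ribosomal protein genes tested, 35 fell (10 to 43 with 1 library left out) and 1 rose (1 to 2 with 1 library left out), with a median of −0.34. The low counts were 14 without day 1 library 1 and 10 without day 2 library 1. Without multiply mapped reads 21 fell and the median was −0.42. DNA replication and G1/S genes held 8 fallers (5 to 7 with 1 library left out) and no riser among 37. Tyms, which makes thymidylate, fell from 215 and 266 to 155 and 145 CPM (log2 fold change −0.68 ± 0.13 (SE), adjusted p = 3.0e-04). Orc6 (−0.92 ± 0.23) and Ccne1 (−0.52 ± 0.11) fell too. Of the 32 mitosis and G2/M genes 5 rose (0 to 2 with 1 library left out), among them Cdc20 (1.04 ± 0.26), and 4 fell (2 to 3 with 1 library left out), beside the 12% and 8.05% of all genes tested. Cdkn1c, a CDK inhibitor that had climbed from 176 CPM at 0 h to a mean of 1571 CPM on day 1, fell (log2 fold change −0.37 ± 0.10 (SE), adjusted p = 0.01), as did Cdkn1b (−0.51 ± 0.11), while Ccnd2 (0.94 ± 0.12) and Cdkn2a (1.30 ± 0.19) rose. Myc stood at 1.14 and 1.15 CPM on day 1 and 18.2 and 7.21 CPM on day 2 (log2 fold change 3.38 ± 0.81 (SE), adjusted p = 0.0038), with a 0 h mean of 16.0 CPM, and its antagonists Mxd4 (1.28 ± 0.27) and Mnt (1.55 ± 0.32) rose. In refits without 1 library, the test was no longer passed by Orc6 (without day 2 library 2, adjusted p = 0.11), Cdc20 (without day 1 library 1, adjusted p = 0.1), Cdkn1c (without day 1 library 2 or day 2 library 1, adjusted p up to 0.11) and Myc (without day 2 library 1, adjusted p = 0.081). Orc6 did not pass with DESeq2 either (adjusted p = 0.076).

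Among p53 targets 2 of 19 rose (1 to 3 with 1 library left out) and 3 fell, the largest change being that of the stress cytokine Gdf15, at 76.6 and 67.3 CPM on day 1 and 18.2 and 14.9 CPM on day 2 (log2 fold change −2.12 ± 0.24 (SE), adjusted p = 3.3e-07). In the integrated stress response list 2 of 18 rose (0 to 2 with 1 library left out) and none fell. The share of all genes tested that rose was 12%, near that of both lists. Of the glycolysis and hypoxia genes 5 of 22 rose (3 to 5 with 1 library left out) and 2 fell (1 to 3 with 1 library left out). The largest rises were in glucose transporters. Slc2a1 (GLUT1) stood at 102 and 125 CPM on day 1 and 491 and 500 CPM on day 2 (log2 fold change 2.13 ± 0.12 (SE), adjusted p = 5.6e-13). Slc2a3 (GLUT3) stood at 512 and 502 CPM on day 1 and 1265 and 1302 CPM on day 2 (log2 fold change 1.34 ± 0.09 (SE), adjusted p = 1.0e-11). Their 0 h means were 522 and 1128 CPM, so both had been lower on day 1 than at 0 h or day 2. Pgk1 (−0.52 ± 0.09) and Aldoa (−0.31 ± 0.10), glycolytic enzymes, fell, and Pgk1 did not pass without multiply mapped reads (−0.66, adjusted p = 0.25). Cholesterol genes held 4 risers (0 to 3 with 1 library left out) and 1 faller (0 to 1 with 1 library left out) among 22. With 1 library left out the test was no longer passed by Aldoa (without day 2 library 1 or day 2 library 2, adjusted p up to 0.15).

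Of the 23 tested genes of the H3K4 methylation machinery, 5 rose (1 to 4 with 1 library left out), none fell and 18 did not pass, where 79.9% of all genes tested did not. Setd1b, a catalytic subunit, stood at 12.5 and 18.4 CPM on day 1 and 51.4 and 49.5 CPM on day 2 (log2 fold change 1.71 ± 0.21 (SE), adjusted p = 1.1e-06). Men1 (0.75 ± 0.20), Hcfc1 and the demethylases Kdm5a (0.83 ± 0.19) and Kdm5c rose within the fold limit. The Polycomb list held 6 risers and 2 fallers (1 to 3 with 1 library left out) among 29. The PRC2 cofactors Jarid2 (372 and 339 CPM on day 1 and 779 and 813 CPM on day 2, log2 fold change 1.16 ± 0.11 (SE), adjusted p = 5.7e-09) and Epop (1.60 ± 0.14) rose and Mtf2 (−0.63 ± 0.12) fell. In the DNA methylation list Dnmt3l, which stimulates the de novo methyltransferases, rose from 26.7 and 15.5 to 112 and 126 CPM (log2 fold change 2.49 ± 0.20 (SE), adjusted p = 7.0e-10), along with Dnmt3b and Zfp57 (0.90 ± 0.27). The 0 h means of Setd1b, Jarid2, Epop and Dnmt3l were 193, 1145, 394 and 258 CPM, above their day 2 means of 50.5, 796, 149 and 119 CPM. The test was not passed in every refit without 1 library by Men1 (without day 1 library 2, adjusted p = 0.15), Hcfc1 (without day 1 library 1, day 1 library 2 or day 2 library 1, adjusted p up to 0.28), Kdm5a (without day 1 library 2, adjusted p = 0.095), Kdm5c (without day 1 library 1, day 1 library 2 or day 2 library 2, adjusted p up to 0.37) and Zfp57 (without day 1 library 1, day 1 library 2 or day 2 library 2, adjusted p up to 0.21). Outside these refits Hcfc1 did not pass under other settings (adjusted p = 0.12 with DESeq2, 0.11 with no filter, 0.053 with the compared groups alone, 0.072 with no multiply mapped reads). Neither did Kdm5c (adjusted p = 0.089 with DESeq2) and Zfp57 (adjusted p = 0.054 with DESeq2).

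Of the imprinted genes 7 of 13 rose (4 to 6 with 1 library left out) and 2 fell (1 to 2 with 1 library left out), against 12% and 8.05% of all genes tested. Dlk1, a membrane protein related to Notch ligands, stood at 10.2 and 11.5 CPM on day 1 and 302 and 258 CPM on day 2 (log2 fold change 4.68 ± 0.18 (SE), adjusted p = 2.2e-16). Igf2, a growth factor of the embryo and placenta, stood at 1.70 and 2.30 CPM on day 1 and 47.3 and 49.5 CPM on day 2 (log2 fold change 4.55 ± 0.39 (SE), adjusted p = 1.7e-09). Peg10, a retrotransposon-derived gene needed in the placenta, stood at 29.5 and 40.2 CPM on day 1 and 454 and 472 CPM on day 2 (log2 fold change 3.73 ± 0.13 (SE), adjusted p = 3.2e-17). Peg10 had the lowest adjusted p of the genes named here. Peg3 rose as well (2.56 ± 0.15). Phlda2 fell from 255 and 203 to 139 and 121 CPM (log2 fold change −0.82 ± 0.13 (SE), adjusted p = 4.8e-05). In the mesenchyme and adhesion list 7 of 23 rose (3 to 6 with 1 library left out) and none fell, with Vim (vimentin) at 63.6 and 99.5 CPM on day 1 and 331 and 300 CPM on day 2 (log2 fold change 1.95 ± 0.16 (SE), adjusted p = 7.5e-10). Fn1 (fibronectin) rose too (0.56 ± 0.13). Among 16 other nuclear receptors 5 rose (2 to 3 with 1 library left out), the lowest count being near the share of all genes, with the orphan receptors Nr2f2 (3.45 ± 0.48) and Nr2f1 (1.79 ± 0.49) among them. With 1 library left out the test was no longer passed by Fn1 (without day 1 library 2, adjusted p = 0.075) and Nr2f1 (without day 1 library 2 or day 2 library 1, adjusted p up to 0.17).

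By size of change the 12 leading genes called, with at least 20 CPM on day 2, were Crabp2, Foxa2, Car4, Cubn, Sfrp5, Amot, Foxq1, Dlk1, Srgn, Igf2, Cyp26b1 and Olig3. Amot, a junction protein of the Hippo pathway, stood at 3.97 and 3.45 CPM on day 1 and 100 and 112 CPM on day 2 (log2 fold change 4.81 ± 0.26 (SE), adjusted p = 2.4e-13). Foxq1, a forkhead factor, stood at 4.54 and 6.90 CPM on day 1 and 166 and 142 CPM on day 2 (log2 fold change 4.74 ± 0.25 (SE), adjusted p = 1.1e-13). Car4, a membrane-bound carbonic anhydrase, rose from 1.70 and 1.15 to 40.5 and 46.2 CPM. By reads gained the leaders among the genes called were Actb, Tceal9, Slc2a3, Sox4, Tubb2b, Sparc, Jarid2, Serpinh1, Dusp6, Peg10, Slc2a1 and Bex3. Tubb2b, a tubulin, was at 527 and 571 and then 1191 and 1216 CPM with 99.6% of its reads multiply mapped. Without such reads it did not pass (log2 fold change 0.32, adjusted p = 0.78). Actb (β-actin) stood at 2141 and 1863 CPM on day 1 and 3753 and 4364 CPM on day 2 (log2 fold change 1.02 ± 0.10 (SE), adjusted p = 3.7e-08), where its 0 h mean was 4006 CPM. Serpinh1, the collagen chaperone HSP47, rose from 194 and 185 to 628 and 627 CPM (log2 fold change 1.73 ± 0.12 (SE), adjusted p = 1.4e-11). Actb belongs to the reference list of genes often taken as stable, in which 4 of 13 rose and 2 fell (1 to 2 with 1 library left out). Beside Actb, Tubb5 (0.76 ± 0.11) and B2m (0.82 ± 0.19) rose. In refits without 1 library, the test was no longer passed by B2m (without day 1 library 2, adjusted p = 0.13).

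A set of 83 genes called higher had at most 3 reads in each of the 6 DMSO libraries of 0 h, 8 h and day 1. Among the 10 with the highest day 2 level were Olig3, Hoxc8, Cubn, Dkk1, Tmprss2, Cdc42ep1, Igfbp5, Gata4 and Limch1. Olig3, a bHLH factor of the dorsal neural tube, had 3 and 3 reads on day 1 and 92 and 49 on day 2. Tmprss2, a membrane serine protease, had 1 and 3 and then 30 and 31 reads. Igfbp5, an IGF-binding protein, had 1 read over both day 1 libraries and 27 and 32 on day 2, a ratio of 51.6-fold (95% interval 8.9 to 2071).

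Several leading falling genes had climbed up to day 1. Cidea, a lipid droplet protein, stood at 208 and 216 CPM on day 1 and 40.0 and 39.9 CPM on day 2 (log2 fold change −2.41 ± 0.17 (SE), adjusted p = 2.8e-11), from 1.67 CPM at 0 h. Aurkc, a meiotic Aurora kinase, fell from 194 and 157 to 37.9 and 43.8 CPM (log2 fold change −2.10 ± 0.16 (SE), adjusted p = 2.3e-10), from 4.30 CPM at 0 h, and multiply mapped reads were 50.4% of its total. Dmrt1, a sex determination and germ cell factor, fell from 334 and 347 to 85.2 and 101 CPM (log2 fold change −1.87 ± 0.13 (SE), adjusted p = 2.2e-11). For all 3 genes the mean at 8 h lay between those at 0 h and day 1. Another leading falling gene stood higher at 0 h than on day 1. Cpt1a, which admits fatty acids to mitochondria, stood at 21.6 and 24.7 CPM on day 1 and 5.19 and 3.85 CPM on day 2 (log2 fold change −2.35 ± 0.38 (SE), adjusted p = 5.1e-05) and at 69.7 CPM at 0 h. By reads lost the leaders among the genes called were Gabarapl2, Gpx4, Pou5f1, Dqx1, Dmrt1, Cidea, Ooep, Aurkc, Mymx, Pecam1, Spp1 and Zic5. Genes that fell within the fold limit, such as Stra8, were not ranked. Gabarapl2, an autophagy protein, stood at 3132 and 3315 CPM on day 1 and 1132 and 1080 CPM on day 2 (log2 fold change −1.54 ± 0.09 (SE), adjusted p = 3.9e-13). Gpx4, a lipid peroxidase, stood at 2087 and 1856 CPM on day 1 and 735 and 782 CPM on day 2 (log2 fold change −1.38 ± 0.10 (SE), adjusted p = 1.3e-10). Of their reads 84.0% and 98.7% were multiply mapped. Mymx, a small membrane fusion protein, fell from 220 and 232 to 93.0 and 92.4 CPM and Ooep, an oocyte protein, from 275 and 238 to 114 and 116 CPM.

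The called genes were also placed by their levels at other times. Of the 577 called higher, 381 had a day 2 mean over 2 times that at 0 h (66.0%, against 20.7% of all genes tested) and 22 had a mean under 0.5 times it. On day 1, 180 of the 577 stood over 2 times above 0 h and 166 under 0.5 times (28.8%, against 15.0% of all genes tested), and since low day 1 and high day 2 values favour the call, these counts are a description. Of the 239 called lower, 114 had a day 1 mean over 2 times that at 0 h (47.7%, against 20.5%) and 88 had a day 2 mean under 0.5 times that at 0 h, where high day 1 and low day 2 values favour the call in the same way.

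By chromosome, 43 of the 407 X-linked genes tested were called higher (10.6%) and 7 lower (1.72%). The share called higher on the 19 autosomes ran from 3.05% to 6.82%. This count was made after the values were seen, and X-linked Tceal9, Bex3 and Amot are among the genes above. With auxin 49 of the 407 were called higher (12%), and the autosomes ran from 3.61% to 9.65%.

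Base composition of the promoter windows is given as a description, without a test. Of the genes called, 428 of the 577 higher and 198 of the 239 lower matched a RefSeq window, as did 9045 of the 11415 tested. The ratio of observed to expected CpG had a median of 0.683 in the genes called higher, 0.623 in those called lower and 0.775 in all genes tested, and it was under 0.4 in 22.9%, 24.7% and 12.4% of windows. The letters TATAAA, on either strand, were in 10.7% of windows of genes called higher, 10.1% of those called lower and 6.77% of all. CCGGAA, the core bound by ETS factors, was in 16.8%, 12.6% and 28.6%. TGATAA, which matches the site of GATA factors, was in 5.84%, 4.55% and 3.74%. A match is a run of letters and not a bound site.

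In auxin-treated cells the same interval was measured in separate libraries, which shared the filter and the spread of 1 fit with the DMSO libraries. With auxin 766 genes were called higher (6.71%) and 240 lower (2.10%). Of the 577 genes called higher in DMSO, 288 (49.9%) were also called higher with auxin, which is 37.6% of the 766, and 558 had a positive log2 fold change, with a median of 1.23. Of the 239 called lower, 65 (27.2%) were also called lower with auxin, 27.1% of its 240, and 206 had a negative log2 fold change, with a median of −0.78. No gene was called in opposite directions. Over the 11415 genes, which are not independent replicates, Pearson's r between the log2 fold changes was 0.547 and Spearman's rho 0.543. Without the fold limit, 12% of all genes tested rose with auxin and 10.6% fell. Of the extraembryonic endoderm genes 15 of 24 rose, with a median of 1.68, and of the cytosolic ribosomal protein genes 52 of 73 fell, with a median of −0.45. The scaling matters for the auxin arm: without TMM factors 89.9% of its calls were higher in place of 76.1%, and the median of all genes was 0.25 in place of 0.08. With 1 library left out, 462 to 575 genes were called higher, the lowest counts being 462 without auxin day 1 library 1 and 465 without auxin day 1 library 2.

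The change itself was tested for a difference between the arms. It was higher with auxin in 22 genes (0.193%) and lower in 63 (0.552%). Without TMM factors the counts were 35 and 35, and the median difference of all genes was 0.12 in place of −0.01, so the split between directions depends on the scaling. With 1 library left out, 8 to 19 genes were higher and 37 to 59 lower, the lowest counts both coming without auxin day 1 library 1. Among the genes called higher in DMSO, 33 rose less with auxin and none rose more, and among those called lower 6 fell less and none fell more. The DMSO libraries that chose these genes also enter the difference, and this favours a smaller change in the other arm. Spry4, the ERK inhibitor, stood with auxin at 7.56 and 14.6 CPM on day 1 and 8.90 and 16.7 CPM on day 2, against 1.14 and 2.87 and then 22.9 and 21.6 CPM in DMSO (difference in log2 fold change −3.23 ± 0.66, adjusted p = 0.0087). Its mean in DMSO was 69.5 CPM at 0 h. Lama1 stood with auxin at 15.1 and 13.2 CPM on day 1 and 35.6 and 37.9 CPM on day 2 (difference −2.33 ± 0.50, adjusted p = 0.012). Dab2 stood with auxin at 10.1 and 16.7 CPM on day 1 and 68.1 and 70.7 CPM on day 2 (difference −1.56 ± 0.31, adjusted p = 0.0078). Sox4 rose less with auxin (difference −1.15 ± 0.12, adjusted p = 1.1e-05), and so did Peg10 (−1.49 ± 0.20), Dlk1 (−1.69 ± 0.36), Lefty2 (−1.70 ± 0.24), Slc2a1 (−1.02 ± 0.17) and Slc2a3 (−1.04 ± 0.12). Slc2a1 stood with auxin at 256 and 237 CPM on day 1 and 525 and 538 CPM on day 2, and Slc2a3 at 919 and 913 and then 1077 and 1181 CPM. For both, day 1 was higher with auxin than in DMSO (102 and 125 CPM, 512 and 502 CPM). Peg10 (41.0 and 41.8, then 197 and 193 CPM) and Dlk1 (7.56 and 11.1, then 80.6 and 67.8 CPM) were lower with auxin on day 2. Aurkc, which fell in DMSO, stood with auxin at 71.8 and 78.0 CPM on day 1 and 74.4 and 64.4 CPM on day 2 (difference 1.99 ± 0.24, adjusted p = 1.5e-05).

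Several genes changed upwards relative to DMSO. Dkk3, a secreted protein of the Dickkopf family, stood with auxin at 3.78 and 2.09 CPM on day 1 and 20.9 and 19.5 CPM on day 2 and in DMSO at 9.65 and 14.4 and then 6.23 and 8.66 CPM (difference 3.42 ± 0.56, adjusted p = 9.3e-04). Axin2, a feedback target of Wnt signalling, stood with auxin at 0.630 and 0.697 CPM on day 1 and 11.0 and 6.32 CPM on day 2 and in DMSO at 4.54 and 1.72 and then 1.56 and 1.44 CPM (difference 4.63 ± 1.18, adjusted p = 0.041). The Axin2 difference rests on few reads, with 8 and 3 and then 3 and 3 reads in DMSO. Its auxin day 1 values lay under the 1.75 and 1.93 CPM that 3 reads make in those libraries before TMM factors. In the other direction Atf5, a stress-response factor, stood at 92.6 and 106 CPM on day 1 and 26.7 and 23.6 CPM on day 2 with auxin and 296 and 233 and then 213 and 244 CPM in DMSO (difference −1.76 ± 0.24, adjusted p = 1.2e-04). For Crabp2 (difference −1.36 ± 0.49, adjusted p = 0.19), Cyp26b1 (−0.75 ± 0.60, adjusted p = 0.64), Gata6 (0.26 ± 0.38, adjusted p = 0.83) and Krt8 (0.63 ± 0.46, adjusted p = 0.59) a difference was not detected, which at 2 libraries a group does not show that the arms were alike.

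**Figure D5:**
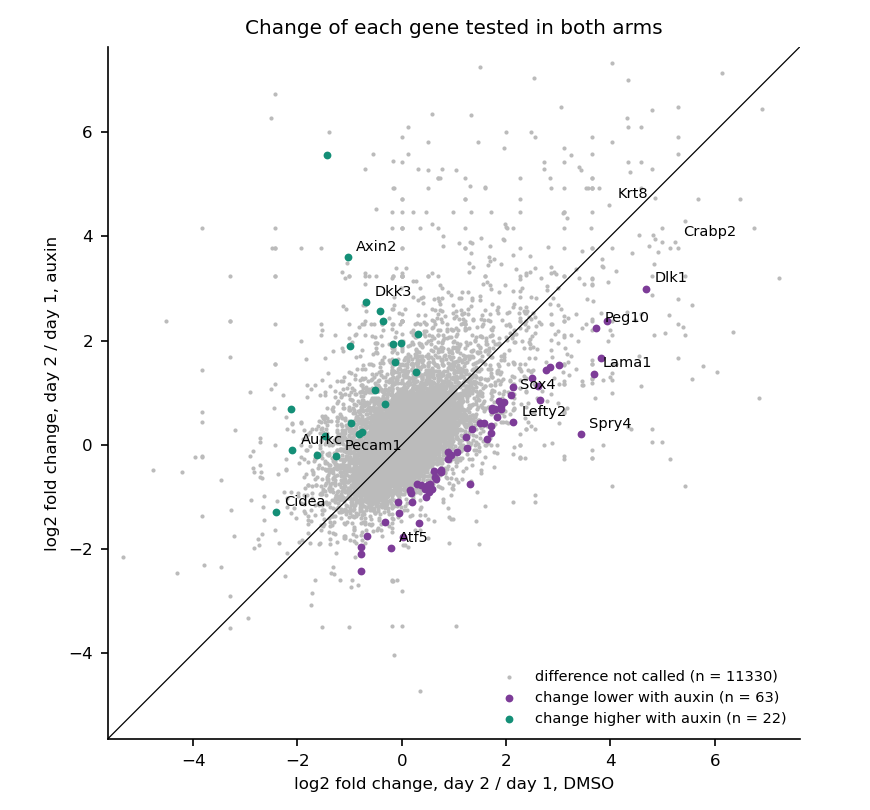
Log2 fold change on day 2 relative to day 1 in DMSO (x axis) and with auxin (y axis) for each gene tested, with the line of equal change; purple genes (n = 63) changed lower and green genes (n = 22) higher with auxin by the test of the difference. Spry4, Lama1, Dlk1, Peg10 and Sox4 lie below the line, and Aurkc, Cidea and Pecam1 above it.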

How the data were processed

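The 22 Quant-seq libraries hold 3′ end RNA-seq of DPY30–mAID mES cells in RA with DMSO or auxin (36 SLAM-seq libraries of the series were not used here). The deposited values are read counts per 3′ UTR interval, which the authors made on GRCm38 (mm10). The file headers name SlamDunk 0.3.4, and the submitters' processing notes name HISAT2 2.2.1 and featureCounts, so the mapper of these counts is not settled. Counts include multiply mapped reads and the kit has no molecular identifiers. Intervals (46420) were summed to 20177 genes, named from GENCODE vM21. The 2 DMSO day 6 libraries held identical values and were counted as 1, which left 21 libraries.

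The 11415 genes whose mean reached 10 reads in any group were tested with edgeR 4.0.16 (R 4.3.3; TMM, quasi-likelihood F test, Benjamini-Hochberg adjustment) in 1 fit of all groups, and called at an adjusted p below 0.05 and an absolute log2 fold change above 1. SEs are from that fit. The total per library, 1815062 to 2144900 reads here, limits precision for low genes. The genes named are list members, the 12 leading genes called each way by log2 fold change (at least 20 CPM) and by CPM difference, the 8 each way that differed most between arms, the 10 leading genes with at most 3 reads in each earlier library, and Dpy30. Some of them are not reported here. Members, lists and tests were chosen with earlier results of these data known. On simulated counts with a log2 change of 2, the test recovered 93% of 200 changed genes (80% of 199 for the difference between arms) and called 8 unchanged genes in each; smaller changes were not simulated. Alternatives were DESeq2 1.42.0, no TMM, other filters, a fit of the compared groups alone, a replicate block, no multiply mapped reads, and leaving out each library. Promoter windows are from RefSeq.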

Additional observations from a re-analysis of the deposited data

Results flagged for a closer look

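The change from day 1 to day 2 differed between the arms, by the interaction test of the edgeR fit, in 22 genes with a higher and 63 genes with a lower change in auxin than in DMSO. No group here has 4 libraries, so no library could be tested as standing apart within its group. Values below are the change in auxin minus the change in DMSO on the log2 scale.

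Among endoderm, imprinted and signalling genes the difference was −3.23 for Spry4, −2.33 for Lama1, −1.56 for Dab2, −1.69 for Dlk1, −1.49 for Peg10 and −1.70 for Lefty2. It was −1.48 for Lin28a, −1.02 for Klf4, −1.22 for Dnmt3l and −1.34 for Setd1b. It was −1.15 for Sox4, −1.34 for Gap43, −1.15 for Meis2, −1.14 for Vim and −1.07 for Serpinh1, and −1.02 for Slc2a1, −1.04 for Slc2a3 and −1.76 for Atf5. The change was higher in auxin for Axin2 (4.63, from few reads), Dkk3 (3.42), Aurkc (1.99), Cidea (1.12), Pecam1 (1.05) and Cdx1 (1.02). The causes were not tested, and without TMM factors the median difference over all genes was 0.12.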

How the results depend on the processing

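In DMSO, DESeq2 called 370 genes higher and 139 lower (all 370 and 130 of the lower also in the main fit). Requiring a mean of 50 reads left 135 lower calls. At an unadjusted p with the fold limit 379 were lower, and without the fold limit 1374 were higher and 919 lower. With 1 library left out, 404 to 496 genes were higher and 196 to 223 lower, and 265 and 83 were called in each of these refits. With auxin DESeq2 called 422 higher, no TMM gave 122 lower, and 1369 and 1206 passed without the fold limit, with 462 to 575 higher and 225 to 267 lower when 1 library was left out. The difference between arms was higher in 9 genes by DESeq2, 35 without TMM, 67 without a filter, 65 with the compared groups alone and 367 at an unadjusted p. It was lower in 35 without TMM, 194 at an unadjusted p and 146 without the fold limit. Leaving out 1 library gave 8 to 19 and 37 to 59. Causes of these shifts were not tested. Of 167 genes named, none changed direction in DMSO from day 1 to day 2 under an alternative that tested it (153 to 167 genes each). The differences between arms were not followed gene by gene. By adjusted p, 16 no longer passed with DESeq2 (7 named genes had no adjusted p), 3 with no TMM and 7 without multiply mapped reads. More were lost with 1 DMSO library left out: 19 and 25 without day 1 library 1 or 2, and 18 and 20 without day 2 library 1 or 2.

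The labels do not say whether equal replicate numbers pair the libraries. The correlation of same-numbered deviations over genes ran from −0.189 to 0.282 over 45 pairs of groups (median −0.003). It cannot exclude pairing, since genes with few reads entered at equal weight. With the replicate block 564 genes were higher and 231 lower in DMSO, 757 and 239 with auxin and 24 and 63 for the difference. Of the genes named only Taf7l no longer passed the test with it (adjusted p = 0.057). Depth limits the low genes, since 3 reads over both day 1 libraries are 0.857 CPM, and 16 genes called higher and 14 called lower have over 50% multiply mapped reads.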
